A study of Homo sapiens with 16 samples.

Results

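The genes described here lie on the short arm of chromosome 16, in the interval chr16:2090000-4750000 of human genome build hg19. The arrays held 192 probes under 153 gene names in this interval. Of these names, 3 were long intergenic (LINC) symbols that the rule leaves out, and 19 did not reach the detection limit of the rule (well above background on 4 arrays or more). The remaining 131 genes, of 26368 gene names tested on the whole array, are followed here, each by its brightest probe and whatever its direction. By RefSeq annotation 73 were protein-coding, 17 were other RefSeq genes and 41 had no match. The interval was proposed after the genotypes had been compared on these same arrays, so every difference between the genotypes within it is given as a description, without a test. What the rule did not use, the response to HGF and genes elsewhere in the genome, was tested.

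The cells were 16HBE, human bronchial epithelial cells immortalised with the SV40 large T antigen. 16HBE-WT cells carry unedited MET, the receptor of hepatocyte growth factor (HGF). In 16HBE-ex14 cells, skipping of MET exon 14 had been introduced with CRISPR/Cas9, and the line measured is 1 clone, clone F, so that the edit and the clone cannot be told apart. Cells of both genotypes were starved of serum for 2 h and left without HGF (0 ng/mL) or stimulated with HGF at 20 ng/mL for 24 h. This gave 4 conditions with 4 arrays each, on 2 slides, and each slide row held 1 array of each condition. By the study's methods the 4 replicates of a condition came from cultures set up a week apart, but the labels do not tie an array to its week. Errors and p-values therefore measure the spread between cultures of 1 line of each genotype.

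This gene-dense stretch near the end of the short arm holds genes of unrelated function. Among them are TSC2 and MLST8, which act on opposite sides of mTOR signalling, CREBBP, the histone acetyltransferase that acts as coactivator of CREB and many other transcription factors, ELOB, a subunit of the elongin and VHL complexes, and IL32, a pro-inflammatory cytokine. What they share is their position. The arrays measure RNA, and DNA copy number was not analysed here. In bulk RNA, more transcript per cell and more cells that express the transcript cannot be told apart.

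The 16 arrays were comparable in quality. The 75th percentile of the processed signal ran from 140 to 263 intensity units, 49% to 60.3% of the probes were well above background, and the correlations between arrays ran from 0.972 to 0.997. Arrays of the genotypes lay apart on the first principal component (41.8% of the variance) and arrays of the slides on the next (18%). All 6 epithelial markers (KRT5, KRT8, KRT18, KRT19, EPCAM and CDH1) were above background on all 16 arrays, but KRT5, a basal keratin, differed between the conditions, with a mean of 2.62 in unstimulated 16HBE-WT cells against 0.05 in unstimulated 16HBE-ex14 cells, and of 2.00 against -2.26 once HGF was added. Of markers of other cell types, 2 of 5 fibroblast, 4 of 4 haematopoietic and 2 of 3 endothelial genes passed the filter, with condition means from -3.73 to -1.04 except for CD79A, which reached 3.35. Their part in the results below was not tested. MET itself read 4.97 ± 0.17 in 16HBE-WT and 5.10 ± 0.15 in 16HBE-ex14 (log2, SD, n = 4), and since its probe does not report whether exon 14 is present, it does not check the genotype.

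All levels below are log2 of the processed signal of the scanner software minus the 75th percentile of the array, and differences are 16HBE-ex14 minus 16HBE-WT on this log2 scale. Over the 131 genes the median difference was 0.37 without HGF, a 1.29-fold higher signal, and 0.34 with HGF, 1.26-fold. Over all 26368 genes the medians were -0.01 and 0.00. The difference was above 0 for 104 genes without HGF, for 103 with HGF and for 95 in both (72.5%, against 38.1% of all genes), and it was below 0 in both for 19. The middle 50% of the genes lay between 0.09 and 0.68 without HGF and between 0.02 and 0.60 with HGF. Protein-coding genes had medians of 0.50 and 0.48, other RefSeq genes 0.16 and 0.17, and genes with no match 0.13 and 0.22. On the whole array, protein-coding genes had 0.03 and 0.02 and genes with no match -0.08 and -0.04. Split into 3 sets by mean signal, the dim genes had medians of 0.14 and 0.19, the middle set 0.43 and 0.34, and the bright genes 0.49 and 0.49. Genes outside the interval also rose with signal, with -0.12 and -0.06 in the dim range, 0.01 and 0.01 in the middle and 0.07 and 0.06 in the bright.

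A gene was called changed at a Benjamini-Hochberg adjusted p below 0.05 over all tested probes in limma and a fold change above 1.5. By this rule 40 of the 131 genes were called higher in 16HBE-ex14 without HGF, where 4.51% of all genes were called higher, and 1 was called lower, where 4.75% of all genes were. With HGF, 29 were called higher (5.3% of all genes) and 2 lower (5.36%), and 22 were called higher in both comparisons (3.07%). Because the interval was chosen by this contrast, these counts describe the choice. In the interval the shares called higher were 30.5% without HGF and 22.1% with HGF. On the long arm of chromosome 16 they were 19.9% and 21.7%, and on the rest of the short arm 13.2% and 10.8%. Without HGF, all 4 arrays of 16HBE-ex14 lay above all 4 of 16HBE-WT in 58 genes (11.4% of all genes) and below them in 1 (9.8%). With HGF these counts were 50 (12.5%) and 3 (11.6%). In 42 genes the 4 arrays of 16HBE-ex14 all lay above the 4 of 16HBE-WT both without and with HGF (7.66% of all genes), and 33 of these 42 were protein-coding. IL32 was the 1 gene with the opposite order in both comparisons (6.5% of all genes).

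**Figure D1:**
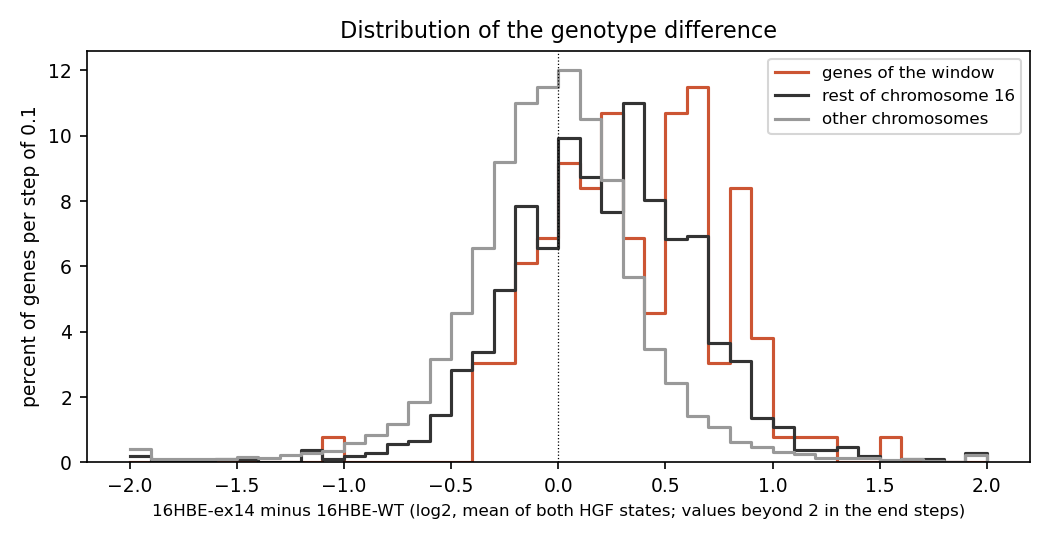
Percent of genes in steps of 0.1 of the difference between 16HBE-ex14 and 16HBE-WT (x axis, log2, mean of the comparisons without and with HGF; y axis, percent of the genes of each class), for the 131 genes of the window, the rest of chromosome 16 and the other chromosomes. The window genes have a median of 0.33 and lie to the right of the genes of other chromosomes, which centre near 0.

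The higher level was not limited to the interval. On the rest of the short arm, 530 genes had median differences of 0.17 without HGF and 0.14 with HGF, and 567 genes of the long arm had 0.30 and 0.30. The 25052 genes on other chromosomes had -0.02 and -0.01. Over all 1228 genes of chromosome 16 the medians were 0.25 and 0.23, first of the 23 chromosomes compared, before chromosome 10 with 0.12 and 0.14. The name "16p genes" therefore covers a difference that runs along most of the chromosome, and no test was made of whether the interval stands above its surroundings, since it was picked on these values. Within the interval the steps of 0.5 Mb were uneven. Without HGF the medians were 0.40 from 2.09 to 2.5 Mb (24 genes), 0.44 from 2.5 to 3 Mb (28 genes), 0.31 from 3 to 3.5 Mb (46 genes) and 0.21 from 3.5 to 4 Mb (15 genes). They were 0.61 from 4 to 4.5 Mb (9 genes) and 0.57 from 4.5 to 4.75 Mb (9 genes).

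**Figure D2:**
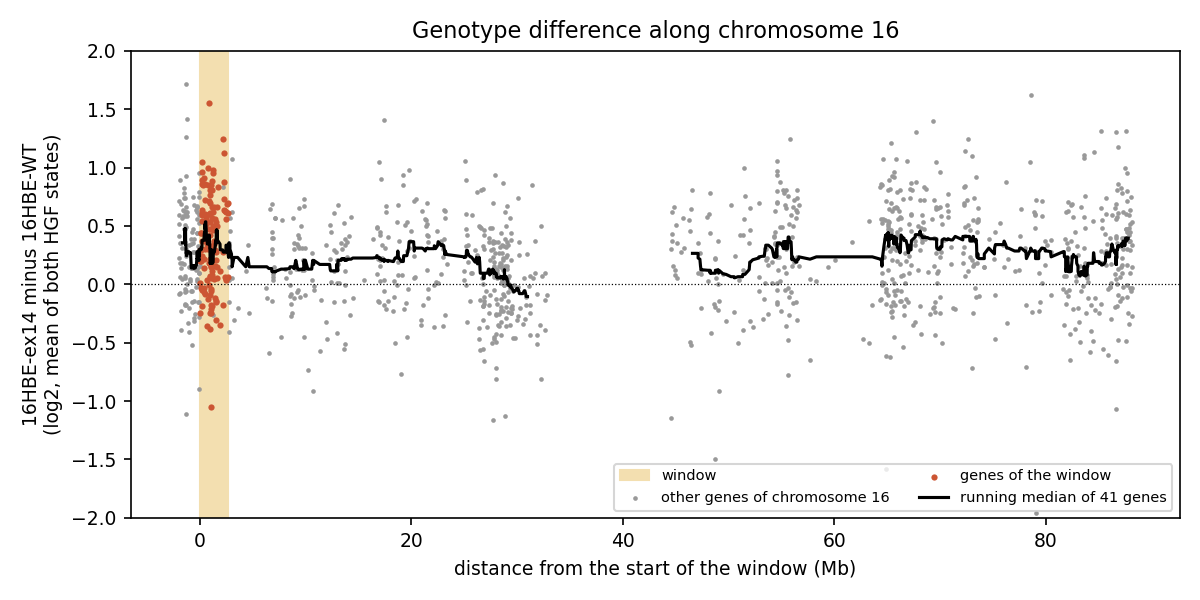
Difference between 16HBE-ex14 and 16HBE-WT (y axis, log2, mean of the comparisons without and with HGF) for 1228 genes of chromosome 16 against the distance of the probe from the start of the window in Mb (x axis). The black line is a running median of 41 genes within each arm, the shaded band is the window, and 4 genes beyond 2 or -2 are not shown. The line stays above 0 along most of both arms.

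The edges are the positions that the rule gives. Just inside the first edge lay NTHL1, a DNA glycosylase of base excision repair, with differences of 0.23 without HGF and 0.17 with HGF, TSC2 with 0.33 without HGF and 0.26 with HGF and LOC105371049 with -0.41 without HGF and -0.08 with HGF. Just outside it were SLC9A3R2, an adaptor of membrane transporters, with 0.04 without HGF and 0.28 with HGF, ENST00000567515 with 0.35 without HGF and 0.28 with HGF (-0.06 without HGF after normexp background correction), and NPW, which was not well above background on any 16HBE-WT array and so has only a bound there. Just inside the last edge were ANKS3 with 0.68 without HGF and 0.54 with HGF, NUDT16L1 with 0.12 without HGF and 0.01 with HGF and MGRN1, a ubiquitin ligase, with 0.71 without HGF and 0.68 with HGF (0.40 and 1.04 as the mean over its probes). Just outside it were ZNF500 with 0.25 without HGF and 0.05 with HGF, SEPT12 with -0.08 without HGF and -0.23 with HGF and SMIM22 with -0.76 without HGF and -0.06 with HGF. SEPT12 was well above background on 12 of 16 arrays and SMIM22 on 13, and after normexp background correction SMIM22 differed by -0.32 without HGF.

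The difference appeared on every array. With each gene set against its own mean over the 16 arrays, the median over the 131 genes was -0.21, -0.20, -0.24 and -0.19 in 16HBE-WT and -0.09, -0.15, -0.22 and -0.15 in 16HBE-WT+HGF. It was 0.18, 0.16, 0.19 and 0.23 in 16HBE-ex14 and 0.22, 0.21, 0.19 and 0.21 in 16HBE-ex14+HGF. The arrays of the genotypes did not overlap, and the 4 arrays of each 16HBE-ex14 condition lay within 0.07 of each other. For the rest of chromosome 16 the arrays of the genotypes did not overlap either. The same medians there ran from -0.17 to -0.02 in the 16HBE-WT conditions and from 0.09 to 0.19 in the 16HBE-ex14 conditions. For genes of other chromosomes they ran from -0.06 to 0.08 over all 16 arrays. Within slide 1 the median difference was 0.39 without and 0.30 with HGF, and within slide 2 it was 0.36 and 0.36. Gene by gene the comparisons without and with HGF, which share no array, had the same sign for 114 of 131 genes (87%, against 77.6% of all genes). Their Pearson correlation was 0.76 across the 131 genes and also 0.76 across all genes, given as a description.

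**Figure D3:**
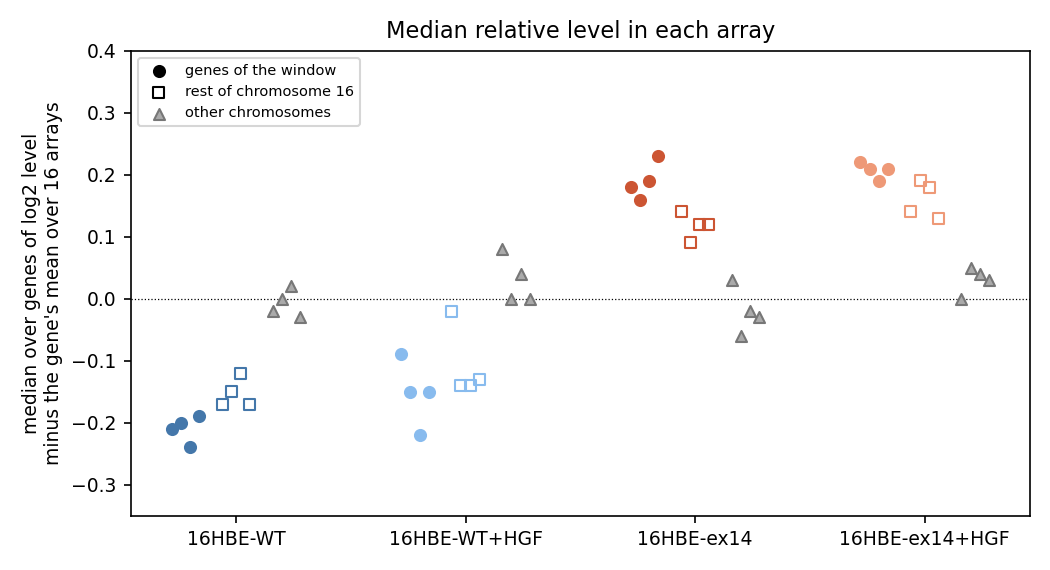
Median relative level in each of the 16 arrays (y axis, log2, each gene minus its mean over the arrays) for the 131 genes of the window (circles), the rest of chromosome 16 (squares) and other chromosomes (triangles), by condition (x axis). Window genes lie between -0.24 and -0.09 in the 16HBE-WT conditions and between 0.16 and 0.23 in the 16HBE-ex14 conditions.

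Promoter sequences of 71 of the 131 genes were found in RefSeq (build GRCh38.p14, 250 bases before to 50 after the start of transcription, 92 promoters). The coordinates of this table are on another build than the probes and were not converted. A pair of genes with large positive differences, ELOB and ECI1, is shown. A second pair, IL32 and CLDN6, is shown because both hold a cAMP response element (CRE) and were lower with HGF in 16HBE-ex14. CLDN6 was not called for HGF, and no promoter sequence was found for KREMEN2, which was called (below). GC content was 76.3% and 71.7% in the first pair and 62.3% and 66% in the second, all above the median of all promoters. In ELOB (chr16:2777231-2777530, minus strand) and ECI1 (chr16:2251538-2251837, minus strand) the capitals mark the GC box GGGCGG on either strand, 4 times in ELOB and 3 times in ECI1.
ELOB: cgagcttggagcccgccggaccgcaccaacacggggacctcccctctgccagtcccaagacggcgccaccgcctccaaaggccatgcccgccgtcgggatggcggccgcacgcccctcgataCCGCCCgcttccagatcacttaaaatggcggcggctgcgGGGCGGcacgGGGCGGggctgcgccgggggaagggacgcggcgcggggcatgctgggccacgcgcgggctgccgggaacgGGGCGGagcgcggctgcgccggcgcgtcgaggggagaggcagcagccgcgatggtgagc
ECI1: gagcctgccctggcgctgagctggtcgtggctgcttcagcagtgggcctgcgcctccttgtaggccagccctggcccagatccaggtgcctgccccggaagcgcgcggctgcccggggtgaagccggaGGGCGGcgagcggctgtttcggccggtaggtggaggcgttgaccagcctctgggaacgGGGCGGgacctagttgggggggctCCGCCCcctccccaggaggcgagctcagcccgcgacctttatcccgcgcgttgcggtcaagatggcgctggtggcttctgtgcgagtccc
In IL32 (chr16:3065153-3065452, plus strand, the first of its 2 listed promoters) and CLDN6 (chr16:3018134-3018433, minus strand) the capitals mark the CRE TGACGTCA, which reads the same on both strands. CLDN6 also holds the GC box 2 times, left in lower case, and IL32 does not hold it.
IL32: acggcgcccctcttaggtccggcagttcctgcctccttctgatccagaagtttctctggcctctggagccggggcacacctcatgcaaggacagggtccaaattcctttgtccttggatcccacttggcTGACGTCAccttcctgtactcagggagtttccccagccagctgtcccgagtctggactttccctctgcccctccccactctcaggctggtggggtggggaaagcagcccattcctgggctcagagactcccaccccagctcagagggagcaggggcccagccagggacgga
CLDN6: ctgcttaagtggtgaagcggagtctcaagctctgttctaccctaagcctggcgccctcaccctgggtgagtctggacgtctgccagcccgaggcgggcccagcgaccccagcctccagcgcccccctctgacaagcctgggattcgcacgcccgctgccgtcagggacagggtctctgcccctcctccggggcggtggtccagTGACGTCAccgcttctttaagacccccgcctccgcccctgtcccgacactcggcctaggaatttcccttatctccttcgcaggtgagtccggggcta
The GC box was in 73.9% of the 92 promoters and in 45% of all 35116 promoters in the table, and median GC contents were 68.5% and 58.7%. The CRE was in 7 of the 92 (7.61%, against 1.85% of all), in promoters of CDIP1, CLDN6, IL32, RNPS1, TRAP1 and ZNF200. It was in 0 of the 39 promoters of genes that were higher in 16HBE-ex14 without overlap in both comparisons. Since IL32 and CLDN6 were picked from these 6 genes for their change with HGF, no link of the CRE with HGF can be read from them. The other 4 changed with HGF by 0.10 (CDIP1), -0.03 (RNPS1), -0.01 (TRAP1) and -0.07 (ZNF200), and their genotype differences without HGF were 0.06, 0.50, 0.50 and 0.37. The second probe of CDIP1 differed by 0.45 without HGF and 0.40 with HGF, so its value is uncertain. CCAAT was in 42.4% (34.6% of all), the E-box CACGTG in 12% (7.26%), the AP-1 site TGANTCA in 1.09% (7.71%) and TATAAA in 1.09% (11.5%), each searched on both strands, where TGANTCA and TGACGTCA do not overlap. A match describes the letters only and does not show that a factor binds there.

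The following values go by role, with lists drawn up for this report that hold 60 of the 131 genes. The lists are loose, and TBC1D24, NAA60 and NUDT16L1 are not established members of the roles they were placed under. The other 71 genes had medians of 0.19 without HGF and 0.21 with HGF. After normexp background correction these were -0.02 and -0.02, where all genes had -0.12 and -0.13. All 4 genes placed in the mTOR and PI3K list (MLST8, PDPK1, TSC2 and TBC1D24) had positive differences, with list medians of 0.46 and 0.45. Of these, 2 of 4 did not overlap between the genotypes in either HGF state (7.66% of all genes were higher in this way). This list and those below are drawn from the interval, where 32.1% of the 131 genes, and 33 of the 73 protein-coding ones, were higher in this way. MLST8 is a subunit of both mTOR complexes. Its level was 2.31, 2.19, 2.24 and 2.56 in 16HBE-WT, 2.56, 2.45, 2.42 and 2.39 in 16HBE-WT+HGF, 2.77, 2.65, 3.32 and 3.03 in 16HBE-ex14 and 2.82, 3.16, 3.15 and 2.98 in 16HBE-ex14+HGF. All 16HBE-ex14 arrays lay above all 16HBE-WT arrays with the same HGF state, and the differences were 0.62 ± 0.14 without HGF and 0.57 ± 0.14 with HGF (standard error, n = 4 against 4). The second probe of MLST8 differed by 0.40 without HGF and 0.37 with HGF. PDPK1, the kinase that activates AKT, differed by 0.59 without HGF and 0.48 with HGF without overlap. Over all its probes the mean difference without HGF was 0.33, so its value is uncertain. Whether its probes share sequence with other loci was not checked. TSC2, the inhibitor of mTORC1 activation, differed by 0.33 without HGF and 0.26 with HGF. TBC1D24, which has no established place in mTOR or PI3K signalling, differed by 0.33 without HGF and 0.42 with HGF. Both had overlapping arrays.

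Among transcription factors and coactivators, 14 genes had list medians of 0.57 and 0.52, and 8 of them did not overlap between the genotypes in either HGF state (7.66% of all genes). After normexp background correction, which adds an offset of 50 intensity units to every signal, the medians of this list were 0.33 and 0.26. CREBBP, measured by a probe at chr16:3775112-3775171 (hg19), is the best known of them. Its level was 2.22, 2.08, 2.26 and 2.34 in 16HBE-WT, 2.37, 2.29, 2.03 and 2.27 in 16HBE-WT+HGF, 3.01, 3.12, 2.96 and 3.32 in 16HBE-ex14 and 3.09, 2.97, 3.06 and 3.04 in 16HBE-ex14+HGF. The highest 16HBE-WT value lay below the lowest 16HBE-ex14 value by more than the range within any condition, and the signal was 1.83-fold higher without HGF and 1.74-fold higher with HGF. ZNF75A, a zinc finger gene, differed by 1.00 without HGF and 0.95 with HGF, with its second probe in the same direction at 0.69 and 0.65. TFAP4, a basic helix-loop-helix factor that binds E-boxes, differed by 1.07 without HGF and 1.41 with HGF, but it was above background on 3 of 4 arrays in each 16HBE-WT condition, and after normexp background correction it differed by 0.11 and 0.20. GLIS2 differed by 0.78 without HGF and 0.49 with HGF, without overlap in the first comparison only, and ZNF205 by 0.15 without HGF and 0.24 with HGF with overlap in both.

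The RNA processing and elongation list had 4 genes and medians of 0.45 and 0.40, and 2 of them were higher without overlap in both HGF states (7.66% of all genes). ELOB (probe at chr16:2821530-2821589) had the largest difference in this list. Its level was 1.89, 2.00, 2.10 and 2.15 in 16HBE-WT, 2.04, 1.97, 2.21 and 2.04 in 16HBE-WT+HGF, 3.07, 2.95, 3.13 and 3.22 in 16HBE-ex14 and 2.80, 2.99, 3.11 and 3.11 in 16HBE-ex14+HGF. The signal was 2.08-fold higher without HGF and 1.92-fold higher with HGF, and no array of one genotype reached the range of the other. SRRM2, a scaffold of nuclear speckles differed by 0.39 without HGF and 0.22 with HGF, RNPS1, of the exon junction complex, by 0.50 without HGF and 0.58 with HGF, and THOC6, of the mRNA export complex TREX, by 0.26 without HGF and 0.17 with HGF.

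For cell division and DNA repair, 5 genes had medians of 0.37 and 0.38, and 2 of them were higher without overlap in both HGF states (7.66% of all genes). TEDC2, a partner of epsilon and delta tubulin at the centriole, led this list. Its level was 2.93, 3.05, 2.96 and 3.18 in 16HBE-WT, 3.20, 3.09, 3.20 and 3.13 in 16HBE-WT+HGF, 3.91, 3.76, 4.14 and 4.09 in 16HBE-ex14 and 3.87, 4.08, 4.11 and 4.09 in 16HBE-ex14+HGF, with differences of 0.94 ± 0.10 without HGF and 0.88 ± 0.10 with HGF. The genotypes did not overlap. PKMYT1, which phosphorylates and inhibits CDK1, differed by 0.71 without HGF and 0.51 with HGF, also without overlap. CCNF, the cyclin of an SCF ubiquitin ligase, differed by 0.30 without HGF and -0.02 with HGF and SLX4, a scaffold of repair nucleases, by 0.29 without HGF and 0.26 with HGF.

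Mitochondrial and metabolic genes had list medians of 0.57 and 0.61 over 9 genes, and 6 of them did not overlap in either HGF state (7.66% of all genes). ECI1, an isomerase of fatty acid oxidation, was measured at chr16:2289938-2289997. Its level was 6.74, 6.74, 6.34 and 6.82 in 16HBE-WT, 6.83, 6.81, 6.76 and 6.43 in 16HBE-WT+HGF, 7.60, 7.51, 7.63 and 7.59 in 16HBE-ex14 and 7.37, 7.65, 7.58 and 7.65 in 16HBE-ex14+HGF. The difference was 0.92 ± 0.12 without HGF and 0.86 ± 0.12 with HGF, and the 16HBE-ex14 arrays spread over less than those of 16HBE-WT. PAM16, of the mitochondrial import motor, differed by 0.82 without HGF and 0.94 with HGF. Its neighbouring transcript lnc-PAM16-1 differed by 1.10 without HGF and 1.15 with HGF (0.67 and 0.69 after normexp background correction). This was the largest mean difference among the 109 genes above background on all 16 arrays. The 10 largest of these also held lnc-CEMP1-1 (0.74 without HGF and 0.98 with HGF, without overlap) and A_33_P3234540 (0.77 without HGF and 0.93 with HGF, with overlap in both comparisons), which are in no role list. DNAJA3, a mitochondrial co-chaperone, differed by 0.57 without HGF and 0.69 with HGF and TRAP1, the mitochondrial HSP90, by 0.50 without HGF and 0.49 with HGF.

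Membrane, transport and trafficking genes were less uniform, with medians of 0.56 without HGF and 0.15 with HGF over 14 genes. Of these, 6 were higher without overlap in both HGF states (7.66% of all genes). ABCA3, the lipid transporter of lamellar bodies in alveolar cells, changed most in this list. Its level was 0.54, 0.47, 0.60 and 0.58 in 16HBE-WT, 0.42, 0.33, 0.16 and 0.66 in 16HBE-WT+HGF, 1.26, 1.47, 1.63 and 1.32 in 16HBE-ex14 and 1.69, 1.62, 1.57 and 1.56 in 16HBE-ex14+HGF. The groups did not overlap, and the fold was 1.83 without HGF and 2.33 with HGF. ATP6V0C, the proton channel subunit of the vacuolar ATPase, differed by 0.61 without HGF and 0.59 with HGF without overlap, and RAB26 by 0.60 without HGF and 0.28 with HGF, without overlap only in the absence of HGF. PKD1 differed by -0.06 without HGF and 0.00 with HGF at its brightest probe but by 0.66 and 0.55 and by 0.73 and 0.49 at its other probes, and since PKD1 has near-identical pseudogenes on the same chromosome, its value is uncertain.

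Immune, receptor and protease genes numbered 10, with list medians of 0.50 and 0.53. In each comparison 3 of them were called higher (4.51% and 5.3% of all genes) and 1 lower (4.75% and 5.36%). DNASE1L2, 1 of those called higher without HGF, was well above background on 1 of 4 unstimulated 16HBE-WT arrays and on 0 with HGF. Of the 10, 2 were higher without overlap in both HGF states (7.66% of all genes). After normexp background correction the medians were 0.13 and 0.19. TNFRSF12A, the receptor of the cytokine TWEAK, lay at chr16:3072180-3072239. Its level was 6.18, 6.30, 5.94 and 6.29 in 16HBE-WT, 6.36, 6.50, 6.45 and 6.24 in 16HBE-WT+HGF, 6.97, 6.73, 7.11 and 7.12 in 16HBE-ex14 and 6.93, 7.19, 7.35 and 7.30 in 16HBE-ex14+HGF. No arrays overlapped between the genotypes, with differences of 0.81 ± 0.12 without HGF and 0.80 ± 0.12 with HGF. PRSS22, a serine protease of airway epithelium, differed by 0.73 without HGF and 0.97 with HGF and MEFV, which encodes pyrin, by 0.56 without HGF and 0.67 with HGF, the first without and the second with overlap, and MEFV by 0.24 and 0.30 after normexp background correction.

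IL32 (probe at chr16:3119308-3119367) went the other way. Its level was 3.62, 3.59, 4.06 and 3.68 in 16HBE-WT, 3.30, 3.47, 3.32 and 3.73 in 16HBE-WT+HGF, 2.61, 3.09, 2.68 and 2.99 in 16HBE-ex14 and 2.23, 2.38, 2.23 and 2.15 in 16HBE-ex14+HGF. Every 16HBE-ex14 array lay below every 16HBE-WT array, with differences of -0.90 ± 0.14 without HGF and -1.21 ± 0.14 with HGF, that is 0.537 and 0.433 times the signal of 16HBE-WT. Its second probe differed by -0.97 and -1.19. The 5 lowest differences among the 109 genes above background on all arrays belonged to IL32, ENST00000573315 (-0.12 without HGF and -0.64 with HGF), CLDN6 (-0.13 without HGF and -0.36 with HGF), MMP25 (-0.15 without HGF and -0.34 with HGF, where the mean over its probes was 0.03) and lnc-IL32-1 (-0.56 without HGF and 0.13 with HGF). All 5 lay within 67.4 kb, chr16:3051933-3119367, which holds 16 of the 131 genes. TNFRSF12A lies in the same stretch, as do 3 other genes that were higher without overlap in both comparisons, so 9 of the 16 had positive and 5 had negative differences in both. This grouping was noticed after the values were seen.

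**Figure D4:**
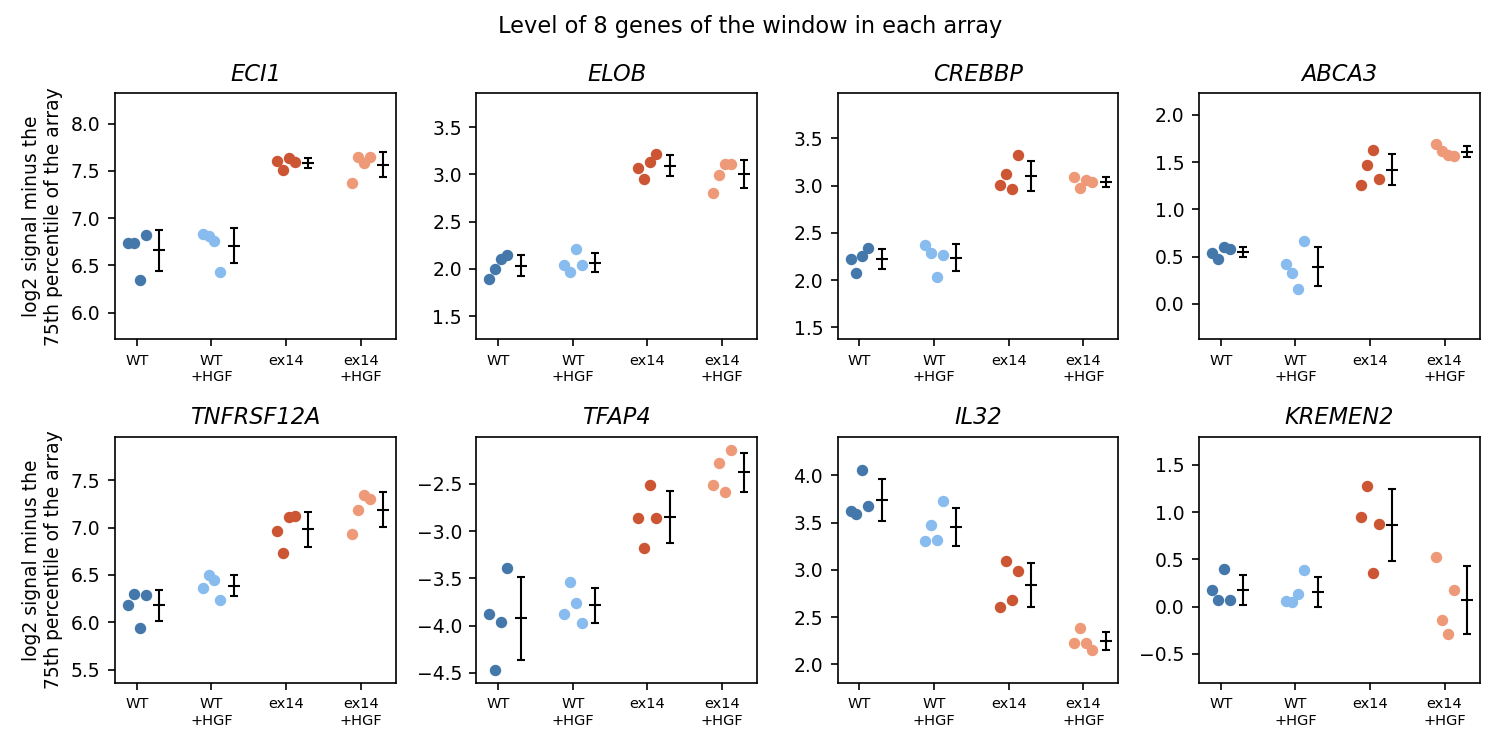
Level of 8 genes of the window in each array (y axis, log2 signal minus the 75th percentile of the array; every panel spans 2.6 units) by condition (x axis), with mean and SD beside the 4 arrays. ECI1, ELOB, CREBBP, ABCA3, TNFRSF12A and TFAP4 are higher in both 16HBE-ex14 conditions, IL32 is lower in both, and KREMEN2 has its highest mean in unstimulated 16HBE-ex14 cells.

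For 25 genes more than 1 probe was tested. Of their 30 other probes, 25 gave a mean genotype difference of the same sign as the brightest probe, and in 18 of the 25 genes all probes were above 0. The other probes had a median of 0.28 and the brightest probes of these genes 0.31. In 7 of the 131 genes no array of some condition was above background, so their levels there are bounds, and none of them has its level given here. They remain in the counts above, and LOC105371055 is among the genes called higher, and without overlap, in both comparisons. Of the 109 genes above background on all 16 arrays, 34 were called higher without HGF and 27 with HGF. Over all genes above background on all 16 arrays the shares were 5.08% and 5.87%. No spot of the 131 probes was saturated.

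The question that the rule left untouched was whether HGF moved these genes. In 16HBE-ex14 cells 3 genes were called lower with HGF, where 0.986% of all genes were, and none was called higher, where 1.13% of all genes were (limma, adjusted p below 0.05 and fold change above 1.5). This share, 2.29% of the 131, was near the 2.11% called in either direction over all genes. The median change with HGF was 0.03 for the 131 genes and 0.06 for all genes. At an unadjusted p below 0.05, 16 of the 131 passed, 12.2% against 14.3% of all genes.

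KREMEN2, a receptor of Dickkopf proteins that inhibits Wnt signalling, fell most (probe at chr16:3018321-3018380). Its level was 0.17, 0.07, 0.40 and 0.07 in 16HBE-WT, 0.06, 0.05, 0.13 and 0.39 in 16HBE-WT+HGF, 0.95, 1.28, 0.36 and 0.87 in 16HBE-ex14 and 0.52, -0.14, -0.29 and 0.18 in 16HBE-ex14+HGF. In unstimulated 16HBE-ex14 cells 3 of 4 arrays lay above all other arrays, and with HGF 3 of 4 arrays lay within or below the range of 16HBE-WT. The change was -0.80 ± 0.19 (standard error, limma adjusted p = 0.0393) in 16HBE-ex14 and -0.02 in 16HBE-WT. IL32 changed by -0.59 ± 0.14 with HGF in 16HBE-ex14 (limma adjusted p = 0.0328), without overlap of the arrays, and by -0.29 in 16HBE-WT. Its second probe changed by -0.55 in 16HBE-ex14, with a limma adjusted p of 0.0691.

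ENST00000573315, a transcript with no RefSeq match at chr16:3051933-3051992, was the other gene called. Its level was 1.98, 1.99, 1.94 and 2.33 in 16HBE-WT, 2.01, 2.07, 1.83 and 2.04 in 16HBE-WT+HGF, 1.56, 1.97, 2.02 and 2.23 in 16HBE-ex14 and 1.35, 1.42, 1.40 and 1.21 in 16HBE-ex14+HGF. The 4 stimulated 16HBE-ex14 arrays were the lowest of all 16, and the change was -0.60 ± 0.13 (limma adjusted p = 0.0233) against -0.08 in 16HBE-WT. CLDN6, a claudin of tight junctions, changed by -0.42 ± 0.09 (limma adjusted p = 0.0238) but missed the fold limit, and by -0.18 in 16HBE-WT. KREMEN2, ENST00000573315 and IL32 lie within 101 kb that hold 21 of the 131 genes. Each fell in all 4 slide rows, by 0.42 to 1.42 for KREMEN2, 0.22 to 1.02 for ENST00000573315 and 0.37 to 0.85 for IL32.

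These 3 calls stood near the threshold. None was kept without 16HBE-ex14 replicate 2, 16HBE-ex14 replicate 4, 16HBE-ex14+HGF replicate 3 or 16HBE-ex14+HGF replicate 4 (0 called each), and without 16HBE-ex14+HGF replicate 2 ENST00000573315 alone was called. With the array row as a replicate block KREMEN2 was no longer called (limma adjusted p = 0.0531). Without the filter on dim probes, or with only the 8 arrays compared, none was called, although the changes themselves stayed between -0.51 and -0.96 under every alternative.

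In 16HBE-WT cells no gene of the interval was called for HGF, as none was on the whole array (0 of 26368 by limma), and 7 of the 131 had an unadjusted p below 0.05 (5.34%, against 4.71% of all genes). The difference between the HGF responses of the genotypes was called for 0 genes, here and on the whole array by limma, with 7 of the 131 at an unadjusted p below 0.05 (5.34%, against 4.6%). For KREMEN2 it was -0.78 ± 0.27 with a limma adjusted p of 0.918, for ENST00000573315 -0.52 ± 0.19 (limma adjusted p = 0.92) and for IL32 -0.31 ± 0.20 (limma adjusted p = 1). A response in 16HBE-ex14 cells alone was therefore not shown for any of them.

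**Figure D5:**
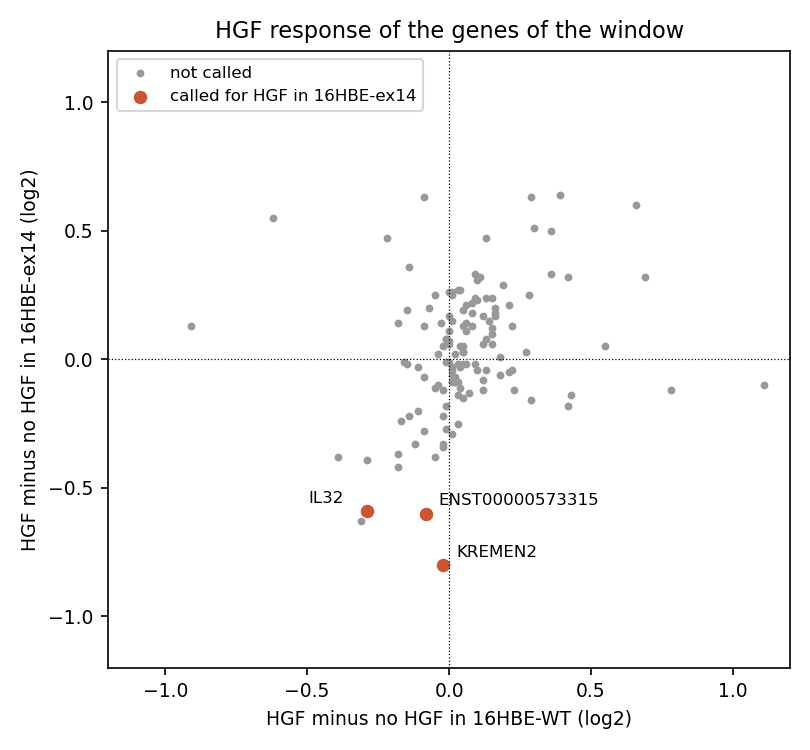
Change with HGF in 16HBE-WT (x axis, log2) against the change with HGF in 16HBE-ex14 (y axis, log2) for the 131 genes of the window. The 3 labelled genes were called for HGF in 16HBE-ex14 and lie between -0.59 and -0.80 on the y axis and between -0.02 and -0.29 on the x axis.

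The products of the interval work with proteins encoded elsewhere, and 37 such partner genes were tested (among them TSC1 and MTOR for TSC2, EP300 for CREBBP, ELOC and VHL for ELOB, and subunits of the vacuolar ATPase for ATP6V0C). Their median difference was 0.09 without HGF and 0.16 with HGF, against 0.37 and 0.34 for the genes of the interval. In each comparison 1 of 37 was called higher by limma, where 4.51% of all genes were without HGF and 5.3% with HGF, and 0 were called lower (4.75% and 5.36%). At an unadjusted p below 0.05, 18 of 37 passed without HGF, against 30% of all genes, and 15 with HGF, against 31.6%. Of the 37, 2 lie on chromosome 16 outside the interval, ERCC4 on the short arm and ATP6V0D1 on the long arm. ERCC4 differed by 0.25 without HGF and 0.42 with HGF and was not called. The gene called both times was ATP6V0D1, a vacuolar ATPase subunit at chr16:67472093-67472152 (hg19). Its level was 3.46 ± 0.14 in 16HBE-WT and 4.10 ± 0.17 in 16HBE-ex14 (SD, n = 4), and the difference was 0.64 without HGF (limma adjusted p = 0.000535) and 0.75 with HGF (limma adjusted p = 0.000123). The call without HGF was lost when 16HBE-WT replicate 1 or 16HBE-ex14 replicate 3 was left out (0 called each), and a second gene was called without 16HBE-ex14 replicate 2 (2 called). By limma, 0 of the 37 were called for HGF in 16HBE-ex14, with 5 at an unadjusted p below 0.05 (14.3% of all genes). ELOC, the direct partner of ELOB, differed by -0.04 and -0.02, EP300, the paralogue of CREBBP, by 0.00 and 0.09, and MTOR by -0.49 and -0.46, which passed the limit on the adjusted p (limma, 0.0129 and 0.0166) but not the one on the fold.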

How the data were processed

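One-colour Agilent arrays were hybridised with RNA of the 4 conditions, 4 arrays for each. The authors deposited linear intensity values (processed signals of Agilent Feature Extraction 10.7.3.1), which had been background-subtracted and detrended within an array but not scaled between arrays. A deposited table of the whole series held the same values (0 differences) and gave no alternative. One-colour arrays give no read depth, and their number limits the precision.

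From these signals log2 values were taken, spots with an outlier mark were left out, each array had its 75th percentile subtracted, and a probe with several spots was given their mean (R 4.3.3, limma 3.58.1, Python 3.11.15, matplotlib 3.10.9). The test covered 34599 of 58201 probes, those detected well above background by 4 arrays or more. A limma model with a mean for each of the 4 conditions used all 16 arrays, 5 contrasts were taken, and each contrast had its own Benjamini-Hochberg adjustment. A call needed an adjusted p below 0.05 and a fold change above 1.5, the limits the study used. The fit was tested on simulated data.

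The interval, its genes, the role lists and the partner list were chosen with earlier results of these data known. Genes were named by rule: the 3 nearest each edge on either side, the 10 largest and 5 smallest genotype differences among genes above background on all arrays, those called for HGF, up to 4 genes per role list and partner genes called; partners not called, other probes and genes with a CRE were added after their values were seen. Of the 131 genes, 87 matched RefSeq by accession and 3 by symbol. Probe positions (hg19) come from the array design. Exon or intron positions of the probes were not analysed here. Alternatives were normexp background correction (offset 50), quantile, median and E1A spike-in scaling, dropping or tightening the filter on dim signals, keeping the outlier spots, a block for slide or for array row, another variance model, the compared arrays alone, the mean over probes, and each array left out.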

Additional observations from a re-analysis of the deposited data

Results flagged for a closer look

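In groups of 4 arrays, an array was marked where its gap to the nearest other array exceeded the 95% limit of Dixon's ratio for 4 values. Of 196 groups tested, over 48 named genes and the median of the 131 genes, 7 were marked, and chance marks about 1 group in 20. MGRN1 in 16HBE-ex14+HGF replicate 2 was 4.38, above 4.22 to 4.25 in the others. ENST00000567515 in 16HBE-WT+HGF replicate 3 was -3.73, below -3.41 to -3.35. SEPT12 in 16HBE-ex14 replicate 4 was -3.54, above -3.87 to -3.81. TEDC2 in 16HBE-ex14+HGF replicate 1 was 3.87, below 4.08 to 4.11. ENST00000573315 in 16HBE-WT replicate 4 was 2.33, above 1.94 to 1.99. PKD1 in 16HBE-WT replicate 2 was 5.13, above 4.91 to 4.94. RAB26 in 16HBE-ex14+HGF replicate 1 was 0.57, above -0.35 to -0.20.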

How the results depend on the processing

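The median difference of the 131 genes moved with the scaling of the arrays, as did the median of all genes. Without and with HGF it was 0.20 and 0.16 after normexp background correction (all genes -0.12 and -0.13), 0.51 and 0.43 with array median scaling (all genes 0.12 and 0.10) and 0.48 and 0.40 with E1A spike-in scaling (all genes 0.09 and 0.06). With HGF it was 0.28 without the filter on dim probes and 0.28 with the mean over the probes of a gene, and without HGF it was 0.42 for genes above background on all 16 arrays. Relative to all genes the median lay between 0.32 and 0.45 without HGF and between 0.28 and 0.40 with HGF under all alternatives run. Leaving out 1 array gave 0.36 to 0.40 and 0.31 to 0.35. Genes called between the genotypes were 28 to 54 without HGF and 26 to 42 with HGF over all alternatives, within 1.5 times of the counts of 41 and 31. The genes called for HGF in 16HBE-ex14 fell from 3 to 1 with normexp (KREMEN2), to 1 with spike-in scaling (ENST00000573315) and to 0 without the filter on dim probes or with only the 8 arrays compared, and leaving out 1 array gave 0 to 3. Adjusted p-values in limma ran from 0.00553 to 0.113 for ENST00000573315, from 0.00771 to 0.123 for IL32 and from 0.00816 to 0.178 for KREMEN2. With the array row as a replicate block 2 were called, and KREMEN2 had a limma adjusted p of 0.0531. Deviations of arrays of the same row from their condition means correlated by 0.21 to 0.32 on average in the 4 sets, with a lowest pair at -0.05. Of 16 arrays, 2 correlated best with their own row number. Differences between the slides were left in these deviations, so the comparison cannot decide whether rows are pairs. The main model did not take the rows as pairs. The sources used here do not say whether a row holds 1 week's cultures. Partner genes called numbered 3 with array median scaling, 2 with spike-in scaling and 0 to 2 with 1 array left out. With array median scaling the membrane list had a median of 0.25 with HGF in place of 0.15. The cause of these changes was not tested. Of 2770 genotype differences of 48 named genes recomputed, 37 moved by more than 1 SD between arrays and 0 of the called ones changed sign. Dim genes, whose signal lies near the background, limit what can be said of the 22 genes not above background on every array.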
